A study of Mus musculus with 12 samples.

Results

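Of the 57010 rows in the gene count tables of this study, 2 are described here: the row labelled Pno1 (ENSMUSG00000020116) and the row labelled Tada3 (ENSMUSG00000048930). Row labels in these tables are displaced along the chromosomes, and the rows are estimated to hold reads of Ppp3r1 and of Camk1, a pair of calcium signalling genes. Both were chosen because their counts were low in one treatment group, TGFB_EV. Values of these rows that involve that group are therefore descriptions and carry no test.

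The cells were BV2, an immortalised mouse microglial line, kept for 24 h with extracellular vesicles (EVs), membrane particles shed by cells. All 12 libraries came from BV2 cells that received vesicles, in 4 groups of 3 named by the BV2 cells that shed them: control cells (control_EV), or cells given the bacterial lipopolysaccharide LPS (LPS_EV), the cytokine TGF-β (TGFB_EV) or the cytokine IL-10 (IL10_EV). Each library gave between 10497757 and 13647007 counts, and levels are given in CPM (counts scaled to one common library total). The labels name no separate cultures beyond wells, so the spread between replicates may be technical, and agent carried over with the vesicles cannot be told apart from the vesicles themselves. In bulk RNA, fewer cells and less RNA per cell cannot be told apart either.

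Calcium that enters a cell or leaves its stores is bound by calmodulin, and calcium-loaded calmodulin switches on both a phosphatase and a family of kinases. The phosphatase, calcineurin, has a catalytic A subunit and a regulatory, calcium-binding B subunit; Ppp3r1 encodes the B subunit found in most tissues. Active calcineurin removes phosphate from NFAT transcription factors, which then enter the nucleus. Camk1 encodes calcium/calmodulin-dependent protein kinase I, which is itself phosphorylated by the upstream kinases Camkk1 and Camkk2.

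The gene in each row was estimated by moving the row's exons, as GENCODE M21 places them on GRCm38, by a displacement fitted to stretches of neighbouring rows without the group labels. The gene Pno1 lies on chr11:17203198-17211568, and its row fitted best at a displacement of -50000 bp (range -50100 to -49900). There the row met a single protein-coding gene, Ppp3r1 (ENSMUSG00000033953, chr11:17159263-17200375, plus strand), by 132 bp of exon 1, or by 32 to 232 bp over that range. The gene Tada3 lies on chr6:113366025-113377883, and its row fitted best at -23000 bp (range -23100 to -22800). It met Camk1 (ENSMUSG00000030272, chr6:113334124-113343984, minus strand) over all 149 bp of exon 1.

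These matches rest on short overlaps. At a minimum of 300 bp neither row met a protein-coding gene, against 1 each without it. The row labelled Tada3 also met Gm20589, a processed pseudogene on chr6:113352636-113355165, by 1217 bp, and the counts cannot be split between it and Camk1. No other row met Ppp3r1 or Camk1, so the rest of either gene was not measured.

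The moved exon that met each gene also covered the bases just before its transcript, and these are shown because reads counted in the row can come from them as well as from exon 1. The moved Tada3 exon (chr6:113343025-113344180) also covered the bases that follow exon 1 of Camk1 and ended a few bases beyond the stretch shown; the rows' other moved exons are not shown. They are given 5′ to 3′ on the strand of the gene from RefSeq (GRCm38.p6), with each CG dinucleotide in capitals. For Ppp3r1 this is chr11:17159077-17159262 on the plus strand, and for Camk1 chr6:113343985-113344172 on the minus strand.
Ppp3r1: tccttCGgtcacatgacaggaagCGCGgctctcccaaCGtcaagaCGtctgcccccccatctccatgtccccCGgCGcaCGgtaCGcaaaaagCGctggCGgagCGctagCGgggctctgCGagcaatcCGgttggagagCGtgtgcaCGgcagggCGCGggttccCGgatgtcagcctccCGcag
Camk1: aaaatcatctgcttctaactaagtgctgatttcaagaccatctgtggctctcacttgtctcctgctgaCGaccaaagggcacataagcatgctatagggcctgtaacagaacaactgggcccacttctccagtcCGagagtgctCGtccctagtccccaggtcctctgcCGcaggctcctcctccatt
The Ppp3r1 stretch is 186 bases long with 67.2% G or C and 21 CG dinucleotides, and the Camk1 stretch 188 bases with 52.7% and 4. Over the full 300-base promoter window, GC content was 70.7% for Ppp3r1 and 60.0% for Camk1. At least as much was found in 8.58% and 29.5% of 32851 mouse promoter windows of that length.

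In the row labelled Pno1, estimated to hold the calcineurin B subunit gene Ppp3r1, the control_EV libraries had 114, 85 and 93 counts, or 10.9, 7.11 and 7.72 CPM. The LPS_EV libraries had 142, 94 and 95 counts, or 13.2, 8.10 and 8.59 CPM. These groups overlapped, with replicate 1 the highest in each.

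The TGFB_EV libraries had 24, 14 and 29 counts in this row, or 2.08, 1.23 and 2.30 CPM. The IL10_EV libraries had 25, 55 and 91 counts, or 1.87, 4.17 and 6.67 CPM. All 3 TGFB_EV libraries lay below every control_EV and LPS_EV library, and IL10_EV replicate 1 lay among them. At 14 counts, the lowest library has an exact (Clopper-Pearson) 95% interval of 0.671 to 2.06 CPM, which covers counting error only.

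Group means for the row labelled Pno1 were 9.96 ± 2.81 CPM in LPS_EV, 8.56 ± 2.01 in control_EV, 4.24 ± 2.40 in IL10_EV and 1.87 ± 0.57 in TGFB_EV (SD, n = 3). In that order, LPS_EV and control_EV overlapped, and so did IL10_EV and TGFB_EV. TGFB_EV stood at 21.9% of the control_EV mean and IL10_EV at 49.5%. The fitted log2 difference of TGFB_EV from control_EV was -2.19 (SE 0.28), that from LPS_EV -2.39 (SE 0.37) and that from IL10_EV -1.18 (SE 0.39), or -0.70 without IL10_EV replicate 3. No test of the row is given against control_EV, the contrast it was chosen on. Among all 10524 rows tested there, edgeR called 4 (0.0380%), all lower. A fit of all 12 libraries called 0 rows in that comparison.

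In the row labelled Tada3, estimated to hold the kinase gene Camk1 together with Gm20589, the control_EV libraries had 1060, 1007 and 1098 counts, or 101, 84.2 and 91.1 CPM. The LPS_EV libraries had 1173, 1031 and 994 counts, or 109, 88.8 and 89.9 CPM. Again these groups overlapped, with replicate 1 the highest in each.

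The TGFB_EV libraries had 461, 390 and 865 counts in this row, or 40.0, 34.2 and 68.7 CPM. The IL10_EV libraries had 545, 1104 and 1239 counts, or 40.7, 83.7 and 90.8 CPM. All 3 TGFB_EV libraries lay below every control_EV and LPS_EV library, but replicate 3 lay nearer to them than to the other two. IL10_EV fell into 1 low library, replicate 1, and a pair near the control_EV level.

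Group means for the row labelled Tada3 were 95.9 ± 11.4 CPM in LPS_EV, 92.1 ± 8.44 in control_EV, 71.8 ± 27.1 in IL10_EV and 47.6 ± 18.5 in TGFB_EV (SD, n = 3). Each group overlapped the next in that order. TGFB_EV stood at 51.7% of the control_EV mean. The fitted log2 difference of TGFB_EV was -0.96 (SE 0.19) from control_EV, -0.997 (SE 0.25) from LPS_EV and -0.60 (SE 0.25) from IL10_EV. Without TGFB_EV replicate 3, the difference from control_EV was -1.33, and that from IL10_EV moved to -0.97.

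Both rows placed all 3 TGFB_EV libraries below all 3 control_EV libraries, as did 4.99% of the 10524 rows tested in that comparison, and below all 3 LPS_EV libraries, as did 10.4% of 11267. The same libraries were low in both rows: TGFB_EV replicates 1 and 2 and IL10_EV replicate 1 held the lowest 3 values in the row labelled Tada3, and these 3 with TGFB_EV replicate 3 the lowest 4 in the row labelled Pno1. The plot of CPM by library shows this for each row.

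**Figure D1:**
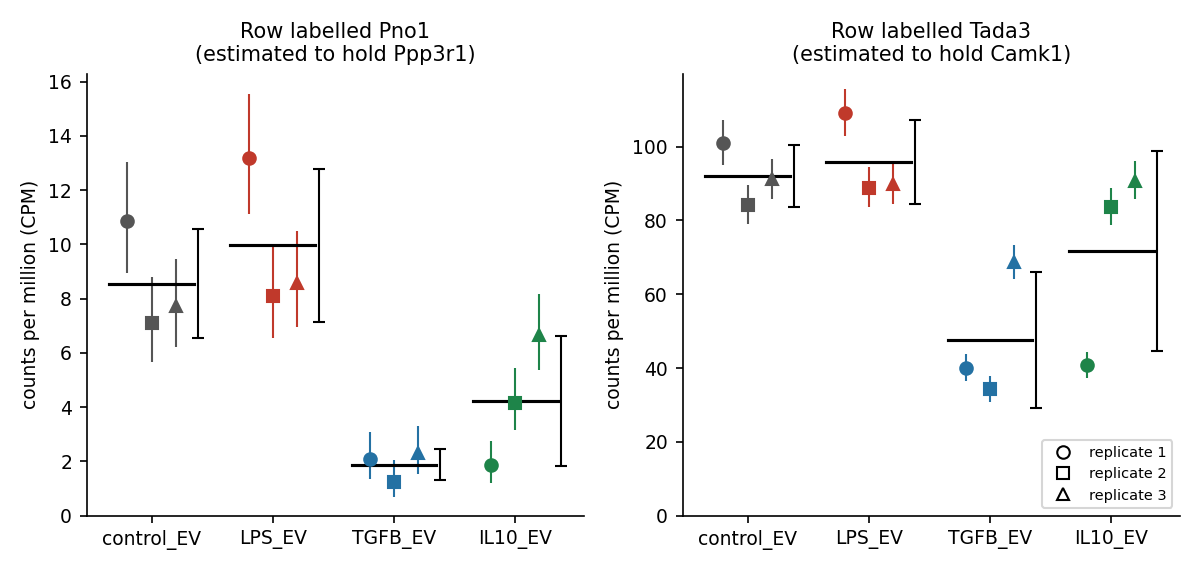
CPM (linear axis from 0) of the row labelled Pno1 (left) and the row labelled Tada3 (right) in the 12 libraries. Symbols are libraries with exact 95% counting intervals, horizontal lines are group means, and bars beside them are 1 SD; TGFB_EV and IL10_EV replicate 1 sit low in both panels.

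The comparison of LPS_EV with control_EV asks whether vesicles of LPS-treated cells change either row. It shares its control_EV libraries with the contrast the rows were chosen on. The edgeR quasi-likelihood test with Benjamini-Hochberg adjustment gave a log2 difference of 0.21 (SE 0.20, 95% interval -0.21 to 0.62, adjusted p = 0.778) for the row labelled Pno1. For the row labelled Tada3 it gave 0.04 (SE 0.08, -0.12 to 0.21, adjusted p = 0.892). Neither row was called, where 86 of 10523 rows were (0.817%). Without LPS_EV replicate 1, the highest library, both estimates changed sign, to -0.040 and -0.051.

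For IL10_EV against control_EV, which shares the same control libraries, the log2 difference was -1.01 (SE 0.35, 95% interval -1.79 to -0.23) in the row labelled Pno1. All 3 IL10_EV libraries lay below the lowest control_EV library, as in 4.04% of 10613 rows. Its unadjusted p in edgeR was 0.0152 and its adjusted p 0.9996, so it was not called. In the row labelled Tada3 the groups overlapped, with a difference of -0.36 (SE 0.22, -0.85 to 0.13, the same adjusted p). Without IL10_EV replicate 1 the differences were -0.65 and -0.08. Of the 10613 rows edgeR called 0 (0%), while 334 were under 0.05 before adjustment. DESeq2, which gave a p-value to 22317 rows and applied its own filter before adjustment, called 1.

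LPS_EV against IL10_EV uses neither TGFB_EV nor control_EV libraries for its difference. The row labelled Pno1 was higher in all 3 LPS_EV libraries than in any IL10_EV library, as were 6.59% of 11267 rows, with a log2 difference of 1.21 (SE 0.33, 95% interval 0.51 to 1.91). Its unadjusted p in edgeR was 0.00191 and its adjusted p 0.850. The row labelled Tada3 differed by 0.40 (SE 0.24, -0.11 to 0.91, adjusted p = 0.897 in edgeR), and by 0.11 without IL10_EV replicate 1. In this comparison 0 rows (0%) were called by edgeR, while 634 were under 0.05 before adjustment. DESeq2, which gave a p-value to 24860 rows and applied its own filter before adjustment, called 1.

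When rows with low counts were kept, the row labelled Pno1 passed the threshold in both comparisons with nearly the same size. The adjusted p in edgeR was then 0.0263 for IL10_EV against control_EV and 0.00125 for LPS_EV against IL10_EV. The SE was smaller, at 0.24 and 0.23 in place of 0.35 and 0.33. In this setting edgeR called 22 of 22317 rows and 18 of 24860 rows, where the main fits called 0. The row labelled Tada3 was not called in either (edgeR adjusted p = 0.177 and 0.0533).

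Of the 7 rows of at least 5 CPM next to the members along the chromosome, none had all 3 TGFB_EV libraries below all 3 control_EV libraries. Over all 10524 rows tested, 4.99% did, so 7 rows are too few to set the neighbours apart from other rows. The row labelled C1d, which follows the row labelled Pno1 and met Wdr92, had 166 to 264 counts, with 16.7, 18.6 and 16.6 CPM in TGFB_EV and 16.2, 16.6 and 15.1 in control_EV. The row labelled Gm12014 met Plek, a platelet and leukocyte signalling protein gene, with 701, 618 and 897 CPM in TGFB_EV and 889, 882 and 851 in control_EV. Its TGFB_EV replicates 1 and 2 were below every control_EV library and replicate 3 was above them.

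The rows labelled with the genes themselves gave other values. The row labelled Ppp3r1 had 0 counts in all 12 libraries, where 3 counts would be 0.220 to 0.286 CPM, and its moved exons met no protein-coding gene. The row labelled Camk1 had 939 to 1345 counts, a mean of 95.2 CPM, and met Brpf1, a chromatin reader gene. It had 98.5, 107 and 107 CPM in TGFB_EV and 89.4, 89.1 and 99.2 in control_EV, so the low TGFB_EV values of the row labelled Tada3 were not seen there.

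Around the row labelled Tada3, the rows labelled Ogg1, Gm20589, Arpc4 and Ttll3 met Cpne9 and Brpf1, Ogg1, Tada3, and Tada3 with Arpc4. Their counts lay between 203 and 322, 162 and 274, 214 and 320, and 2097 and 2914. The reads estimated to come from Tada3 itself, a subunit of histone acetyltransferase complexes, thus lay in other rows, at 25.7, 20.9 and 25.4 CPM in TGFB_EV and 20.4, 25.2 and 21.4 in control_EV for the row labelled Arpc4. The other rows within 5 places of a member that had any counts, 13 in all, had means under 5 CPM.

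**Figure D2:**
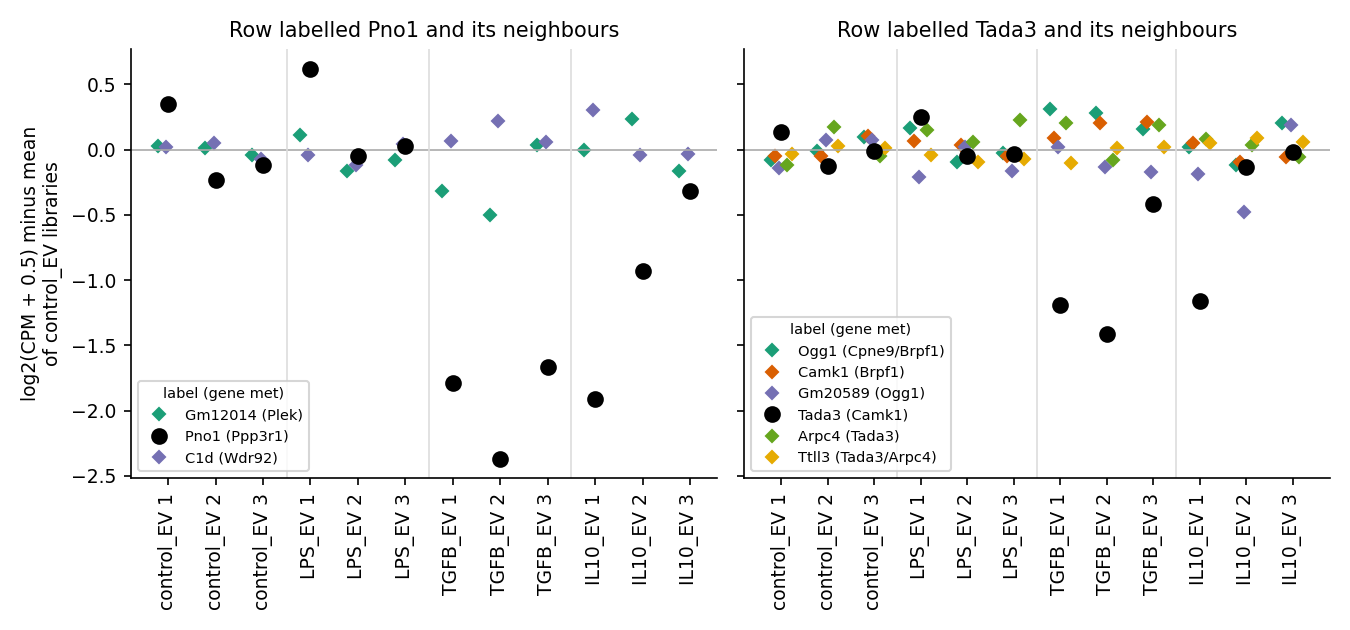
log2(CPM + 0.5) minus the mean of the control_EV libraries for each member (black) and for rows of at least 5 CPM within 5 places of it along the chromosome (coloured diamonds), by library; legends give the label and the gene met. The members drop in TGFB_EV and in IL10_EV replicate 1, where the neighbours lie nearer 0.

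The members share features that were not themselves used to choose them. Rows with these features were more often low in TGFB_EV, as given below, so a choice on low TGFB_EV values favours such rows. Each met its gene at the very start of the transcript: the shared bases are centred at 2.04% of the merged exon length for Ppp3r1 and at 1.25% for Camk1. The shared bases are 75% and 75.2% G or C. Among 4601 rows of at least 5 CPM that met a single protein-coding gene, 10.4% were centred in the first 10% of its merged exons, 2.11% had at least 70% GC, and 1.65%, 76 rows with the members among them, had both. The part of Gm20589 that the row labelled Tada3 met has 46.0% GC.

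The rows whose levels followed the members most closely over the 12 libraries were looked up among 5743 rows of at least 5 CPM with a gene name. For the row labelled Pno1, the highest Pearson correlations of log2 CPM were 0.952 for the row labelled Gna15, which met Gipc3 and Hmg20b, 0.949 for Slc25a29, which met Yy1, and 0.949 for Tnnt2, which met Tnni1 and Phlda3. For the row labelled Tada3 they were 0.994 for Lman1l, which met Cox5a, a cytochrome c oxidase subunit gene, 0.985 for Kcnip2, which met Mgea5, and 0.983 for Tagap, which met Gm49673 and Rnaset2a. These are descriptions over libraries shared by all rows. A correlation of at least 0.9 was reached by 21 rows (0.366%) with the row labelled Pno1 and by 34 (0.592%) with the row labelled Tada3.

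The row labelled Lman1l had 48.9, 44.4 and 82.2 CPM in TGFB_EV, 53.4, 107 and 107 in IL10_EV and 110, 93.0 and 107 in control_EV, the same libraries low as in the row labelled Tada3. It met Cox5a at 5.85% of the merged exons with 84.2% GC. The rows labelled Slc25a29, Kcnip2 and Tagap also met a gene in its first 10%, at 7.33%, 5.32% and 5.92%, with 74.8%, 72.7% and 75.3% GC. The rows labelled Gna15 and Tnnt2 did not: they met a gene at 20.2% and 12.4%, with 69.5% and 40.7% GC. Where a row met 2 genes, these values are for the gene met nearest its start. That gene was Gm49673 for the row labelled Tagap, Gipc3 for Gna15 and Tnni1 for Tnnt2.

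The other 74 rows that met their gene in the first 10% with at least 70% GC were therefore examined as a group, a choice made after these values were seen. The rows labelled Slc25a29, Lman1l and Kcnip2, picked by their correlation with the members, are among the 74. The medians and shares given for the 74 are therefore not independent of that search. The median deviation of the 74 rows from the row mean, on the log2(CPM + 0.5) scale, was 0.11, 0.04 and 0.06 in control_EV and 0.16, 0.08 and 0.09 in LPS_EV. It was -0.11, -0.19 and -0.03 in TGFB_EV and -0.14, -0.04 and 0.07 in IL10_EV. The lowest 3 libraries were thus the same 3 that were lowest in the row labelled Tada3, on a scale several times smaller than in the members. The part of this shared deviation in the members' values was not tested.

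Against control_EV, 56 of these 74 rows (75.7%) had a lower mean log2 level in TGFB_EV, with a median difference of -0.16, and 55 (74.3%) in IL10_EV, with a median of -0.13. In LPS_EV it was 33 (44.6%), with a median of 0.01. All 3 TGFB_EV libraries lay below all 3 control_EV libraries in 21 of them (28.4%), beside 142 of 4100 (3.46%) among rows that met a later part with less GC. Among 404 first-10% rows with less GC it was 24 (5.94%), and among 21 later rows with at least 70% GC it was 5 (23.8%). The median TGFB_EV difference was 0.01, -0.07 and 0.02 for first-10% rows with less GC, later GC-rich rows and later rows with less GC.

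**Figure D3:**
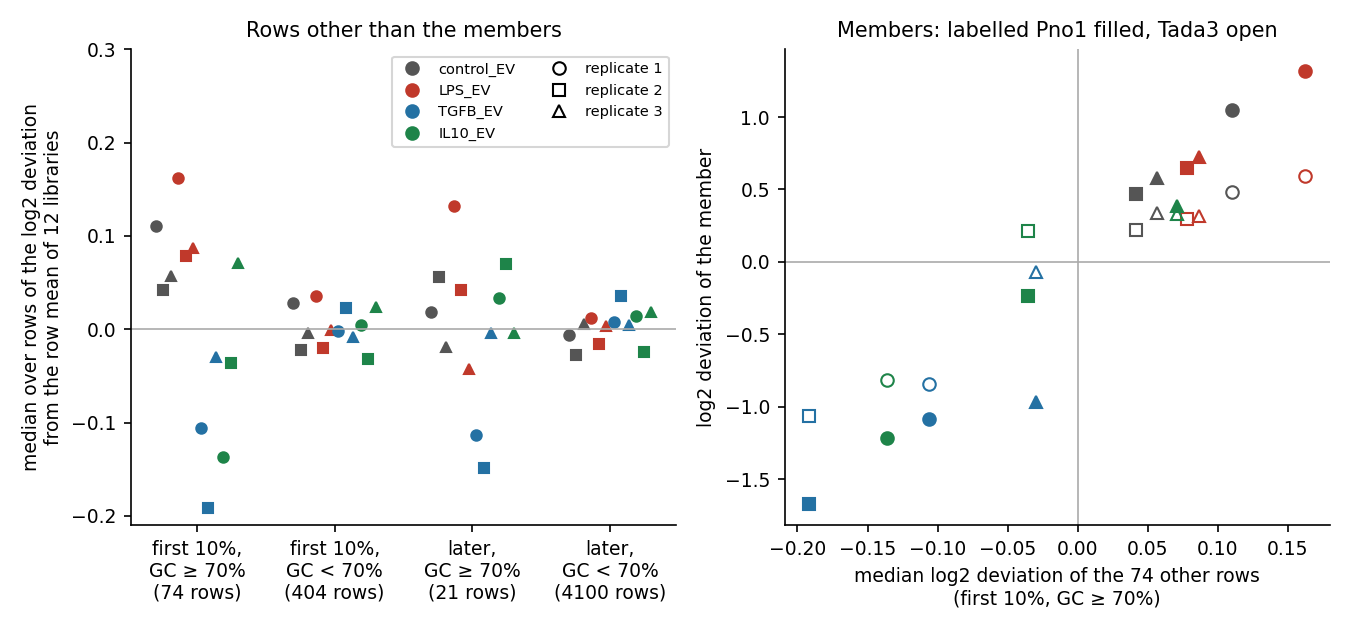
Left: median log2 deviation from the row mean in each library for 4 classes of rows, by position in the gene met and GC content, members left out. Right: deviation of each member (row labelled Pno1 filled, Tada3 open) against that of the 74 GC-rich first-10% rows; the TGFB_EV libraries and IL10_EV replicate 1 lie at the lower left.

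Ppp3r1 and Camk1 have no second row, but 32 genes were met both by a GC-rich first-10% row and by a later row with less GC. For these genes the median TGFB_EV difference, on the same log2 scale, from control_EV was -0.18 in the first-10% rows and 0.03 in the later rows of the same genes, and the first-10% row was the lower in 25 of 32. In IL10_EV the medians were -0.13 and -0.01 (23 of 32 lower), and in LPS_EV 0.005 and 0.01 (14 of 32). For values by library, each row was first taken as its deviation from its own mean over the 12 libraries. A value of 0 thus stands for a gene's average over libraries, not for equal levels of its parts. Each gene's differences then average 0 over the libraries, so some must fall below it. On this scale the median of the first-10% row minus the later rows was -0.16, -0.21 and 0.005 in TGFB_EV and -0.12, 0.02 and 0.06 in IL10_EV. It was 0.15, 0.06 and 0.05 in control_EV and 0.18, 0.12 and 0.03 in LPS_EV. The value was thus below 0 in TGFB_EV replicates 1 and 2 and IL10_EV replicate 1 only. Yy1, a zinc finger transcription factor, was picked out after its values were seen. On the same centred scale, its row labelled Slc25a29 minus the later row was -0.63, -0.79 and -0.16 in TGFB_EV and 0.61, 0.18 and 0.11 in control_EV. That row was found above by its correlation with the row labelled Pno1, and Yy1 is counted among the 32 genes. Other parts of Ppp3r1 and Camk1 were not measured, so the same comparison could not be made for them.

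**Figure D4:**
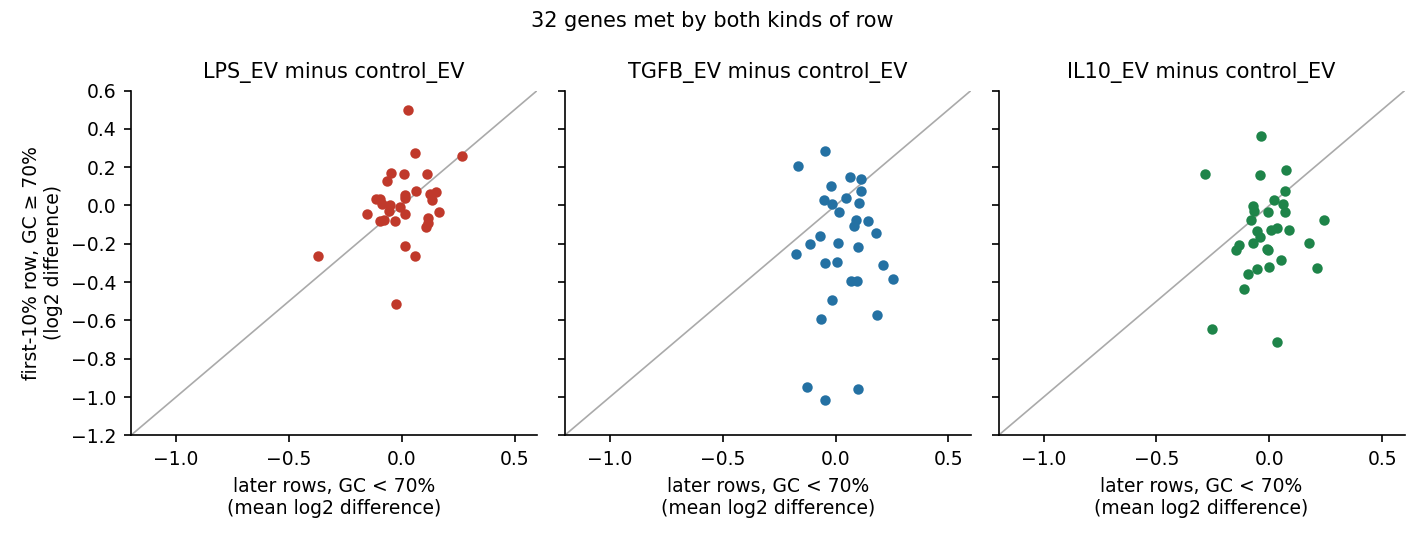
Log2 difference from control_EV for 32 genes, first-10% rows with at least 70% GC (vertical) against later rows with less GC (horizontal), 1 point a gene, with the line of equality. In TGFB_EV 25 points and in IL10_EV 23 points lie below the line; in LPS_EV 14 do.

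Other genes of the pathway were taken from a list of 56, by the gene met. Beside the members, 36 of them were met by 60 tested rows. In LPS_EV 1 of the 60 rows was called, lower, beside 86 of 10523 rows in all (0.817%); the median log2 difference was 0.01 over the list and 0.002 over all rows. In TGFB_EV 0 were called by edgeR and by DESeq2, with medians of -0.03 and -0.001, and in IL10_EV 0 by both tools, with medians of -0.01 and 0.002. Before adjustment, edgeR put 8 of the 60 rows under 0.05 in LPS_EV beside 1180 of 10523 in all, 5 in TGFB_EV beside 656 of 10524, and 4 in IL10_EV beside 334 of 10613. When rows were taken by their label instead, 28, 27 and 28 rows gave 1, 0 and 0 calls, the same row in LPS_EV.

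Of the other calcineurin subunits, only the catalytic subunit gene Ppp3cb was met by a tested row. This was the row labelled Camk2g, which also met Anxa7 and Mss51. It had 378, 360 and 661 CPM in TGFB_EV and 609, 575 and 548 in control_EV. Replicates 1 and 2 lay below the control_EV libraries and replicate 3 above them, with a log2 difference of -0.32 (edgeR adjusted p = 0.791). Ppia, the cyclophilin that carries cyclosporin to calcineurin, was met by the row labelled Purb at 3509 ± 53.2 CPM in TGFB_EV and 3589 ± 138 in control_EV (SD, n = 3), a difference within the spread between replicates.

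Downstream of calcineurin, the NFAT factor gene Nfatc3 was met by 3 rows, chosen for description after their values were seen. The row labelled Fhod1 met its first part, at 2.21% of the merged exons with 72.9% GC, and had 9.47, 9.73 and 12.3 CPM in TGFB_EV against 15.9, 11.6 and 14.1 in control_EV. The rows labelled Slc9a5 and Plekhg4 met later parts, at 25.1% and 67.8% with 38.6% and 41.6% GC. They had 41.8, 36.7 and 34.4 against 30.9, 26.2 and 34.3 CPM, and 133, 132 and 116 against 107, 104 and 121 CPM. The log2 differences were -0.41 for the first part and 0.29 and 0.19 for the later ones, and none was called. Dyrk2, a kinase that phosphorylates NFAT, was met by the row labelled Gm47461 at 52.4 ± 5.63 CPM in TGFB_EV and 53.7 ± 1.46 in control_EV.

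Among the kinases, the called row was that labelled Camk2b. It met Camk2b, a calmodulin-dependent kinase II subunit gene, by 36 bp, and Ykt6, a membrane fusion protein gene, so its counts cannot be given to either. It had 113, 112 and 111 CPM in LPS_EV and 128, 129 and 139 in control_EV, a log2 difference of -0.25 (SE 0.06, edgeR adjusted p = 0.0488), where 29 of all 10523 rows were called lower (0.276%). The call was lost when any single library was left out (adjusted p = 0.0778 to 0.265) and in a fit of all 12 libraries (0.551). The row labelled Gm43751 met Camk2d, another subunit gene, at 171 ± 8.16 CPM in TGFB_EV and 172 ± 5.17 in control_EV. Camkk2, whose product phosphorylates CaMKI, was met by the row labelled Ift81, which also met the ATP receptor gene P2rx4, at 53.5 ± 1.22 and 57.2 ± 1.66 CPM, a log2 difference of -0.11 that was not called (edgeR adjusted p = 0.836).

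Genes of calcium entry, stores and calcium-regulated transcription had no called row in these comparisons. The row labelled Gm43604 met Orai2, a calcium channel of the plasma membrane, at 44.2 ± 2.75 CPM in TGFB_EV and 48.8 ± 3.19 in control_EV. The row labelled Pptc7 met Atp2a2, the calcium pump of the endoplasmic reticulum, and Anapc7, at 458 ± 58.8 and 400.1 ± 28.9 CPM. The row labelled Vps29 met the first part of Atp2a2, at 6.24% of the merged exons with 71.3% GC. It had 43.2, 41.4 and 36.8 CPM in TGFB_EV and 43.5, 41.8 and 42.8 in control_EV. Its log2 difference was -0.09, not called, where that of the Nfatc3 row labelled Fhod1 was -0.41. The row labelled Gatad2b met Crtc2, a coactivator of CREB, with Dennd4b and Slc39a1, at 424 ± 3.10 and 430 ± 8.76 CPM.

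The microglial label was checked by gene met, leaving out rows with very few counts and rows outside supported stretches of the fit. Of 12 microglial markers 5 were met by rows of at least 5 CPM (Aif1, Csf1r, Fcer1g, Itgam and Tyrobp), and rows that met any of the 12 summed to 3547 to 4234 CPM per library. Of the rows of at least 5 CPM, only that of Aif1, at a mean of 15.1 CPM, met no other protein-coding gene. The row that met Fcer1g, at 1950 CPM, met 4 such genes, and that of Tyrobp, at 780 CPM, met 3. Most of these sums therefore cannot be given to the markers alone. The other 7, Trem2, P2ry12 and Tmem119 among them, were not met at that level. Of markers of neurons, astrocytes and fibroblasts none was met by the rows kept. Rows with very few counts may still cover them. Of 5 oligodendrocyte markers Olig2 was met, and of 5 endothelial markers Pecam1, by a row that met 2 protein-coding genes, and Tek. The rows of these last 2 genes summed to 40.5 to 44.6 CPM in control_EV, 41.8 to 46.2 in LPS_EV, 45.2 to 48.5 in TGFB_EV and 39.6 to 48.5 in IL10_EV, all higher in TGFB_EV than in control_EV; their part in the results was not tested. The row that met Olig2, by 197 bp, had 6.10 to 7.72 CPM in control_EV, 10.1 to 11.5 in LPS_EV, 4.37 to 8.68 in TGFB_EV and 6.67 to 10.5 in IL10_EV, all higher in LPS_EV than in control_EV; its part in the LPS_EV call of the list was not tested. The microglial sums were 3728 to 3926 CPM in control_EV and 3547 to 3970 in TGFB_EV, which overlapped. For the endothelial sums and the Olig2 row, the share of all rows that lay higher in the same way was not computed. Those separations are therefore not read as a change in cell type.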

How the data were processed

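BV2 libraries were made with SMART-Seq v4 and Nextera XT (18 PCR cycles), per the labels' protocols; these kits do not mark strand. Values are raw read counts by Ensembl gene ID, as the authors deposited them. The submitters' processing notes name DESeq2; nothing used here names the aligner, counter, build or annotation. Of the 57010 row IDs, 50445 had a GENCODE M21 position on the autosomes or chromosome X, where displacements were fitted, and 4981 were absent from it. Control columns were identical in the 3 tables used, and a duplicate table was not used.

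Displacements were fitted per stretch in steps of 100 bp (penalty 15 for each change), rewarding abundant rows that met exons of 884 widely expressed genes. The fit also penalised rows of at least 5 CPM that met no protein-coding exon, and rows under 0.1 CPM that met the widely expressed genes. Both members, at means of 6.16 and 76.8 CPM, were among the rows of at least 5 CPM. Their meeting a protein-coding gene was thus itself favoured. Of 71 stretches 65 were supported. The fit favours genes met, so these are estimates.

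The count test was edgeR's quasi-likelihood F test (edgeR 4.0.16 under R 4.3.3; TMM, filterByExpr with a minimum count of 10, adjusted p under 0.05 over all rows tested), on 6 libraries for each comparison with control_EV and on 12 for pairs of treatments. DESeq2 1.42.0 was an alternative. In simulated counts with 2-fold changes, 77% were recovered for LPS_EV (10296 rows), 79% for TGFB_EV (10267), 66% for IL10_EV (10371) and 71% for LPS_EV against IL10_EV (11004). The simulation drew each row on its own, without deviations shared by the rows of a library, so recovery in the real counts may be lower. Between replicates 2 and 3, chi-square per degree of freedom was 16.9 in TGFB_EV and 24.8 in IL10_EV. Between any replicates it was at most 5.70 in control_EV and 5.86 in LPS_EV. Levels are CPM by library total, without TMM.

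The members and lists were chosen with earlier results of these data known. Rows named are the members, rows that carry or met their genes, and rows within 5 places. So are the most abundant row of each role in the calcium list and any called. The 3 most correlated rows of at least 5 CPM with a gene name are also named. The rows labelled Fhod1, Slc9a5 and Vps29 and the gene Yy1's comparison of rows were added after their values were seen. The row of 1 role is not reported here.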

Additional observations from a re-analysis of the deposited data

How the results depend on the processing

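Of 226 alternative values, 178 were taken as unchanged. They kept their direction and their side of the threshold, or moved by less than the spread between replicates. For counts of rows called, unchanged meant equal or within a fixed ratio, as with 119 calls by DESeq2 for LPS_EV beside 86. The cause of the changed values was not tested, except where fewer libraries or more rows were tested. For rows called, edgeR without a filter on low counts gave 165 for LPS_EV, 111 for TGFB_EV and 22 for IL10_EV against control_EV and 18 for LPS_EV against IL10_EV. A fit of all 12 libraries gave 0 calls against control_EV for LPS_EV, TGFB_EV and IL10_EV. DESeq2 gave 17 for TGFB_EV, and 1 each for IL10_EV against control_EV and LPS_EV against IL10_EV. Counts summed by gene met gave 1 for TGFB_EV. Leaving out 1 library gave 18 to 127 calls for LPS_EV, 0 to 419 for TGFB_EV (419 without TGFB_EV replicate 3), 0 to 2 for IL10_EV and 0 to 3 for LPS_EV against IL10_EV.

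The row labelled Pno1 in LPS_EV against control_EV ranged from -0.040 (without LPS_EV replicate 1) to 0.40 when 1 library was left out, and the row labelled Tada3 from -0.051 to 0.11 (-0.051 without LPS_EV replicate 1 and -0.0071 without control_EV replicate 2). In IL10_EV against control_EV the ranges were -1.49 to -0.65 and -0.56 to -0.08, and in LPS_EV against IL10_EV 0.85 to 1.69 and 0.11 to 0.60. With TGFB_EV, the row labelled Pno1 ranged from -2.38 to -1.95 against control_EV, -2.57 to -2.14 against LPS_EV and -1.53 to -0.70 against IL10_EV. The row labelled Tada3 ranged from -1.33 to -0.76, -1.36 to -0.80 and -0.97 to -0.40. Without the filter on low counts the row labelled Pno1 passed the threshold at -1.01 and 1.20 in IL10_EV against control_EV and LPS_EV against IL10_EV. DESeq2 gave no adjusted p for that row in LPS_EV against control_EV, which is therefore not counted. An overlap of at least 300 bp left 0 protein-coding genes met by either member.

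Calls in the calcium list in LPS_EV were 0 in the fit of all 12 libraries, 2 with the replicate block and 0 without any single library. In TGFB_EV they were 1 without the filter and 0 to 4 when 1 library was left out. Replicate numbers did not pair the samples: deviations of libraries with the same number correlated between -0.11 and 0.09. With the replicate block 209 rows were called for LPS_EV, 3 for TGFB_EV, 3 for IL10_EV and 0 for LPS_EV against IL10_EV, and neither member in a tested comparison. For the GC-rich first-10% rows, the TGFB_EV minus control_EV gap between group means of the library medians was -0.179 over the 74 rows. It ranged from -0.181 to -0.122 under other position and GC limits, which change the rows, and another pseudocount, all chosen after the data were seen.

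Low counts limit the row labelled Pno1: at 14 to 142 counts a library, its counting intervals are wide beside those of the row labelled Tada3. Both estimates of the gene held under change penalties of 8 and 30.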
